A study of Mus musculus with 4 samples.

Results

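The genes described here are 37 genes of neurons, synapses and glia, chosen by name out of 21887 protein-coding genes placed on chromosomes 1 to 19, X and Y. Each was followed over its RefSeq span in mm10 (GRCm38) with 1 kb added on either side. H3K9ac, acetylation of lysine 9 of histone H3, was mapped by chromatin immunoprecipitation and sequencing in MDSC derived from mouse bone marrow. MDSC, myeloid-derived suppressor cells, are immature myeloid cells that restrain T cell responses. Both groups were in vitro senescent MDSC under a condition named CM, which the labels do not expand, and strain, sex and age were not given. One group also received romidepsin, an inhibitor of class I histone deacetylases, and the other was CM without the drug. The comparison addressed how the inhibitor bears on the places of H3K9ac. Peak lists of 1 immunoprecipitated library per group were used, so no difference has a replicate check and no test between groups was possible. The romidepsin list held 103336 peaks with a median fold enrichment of 2.64, and the CM list held 16419 peaks with a median fold of 5.04. Folds and −log10 q-values are those of the authors' lists, averaged over each broad peak, and folds of the lists rest on different backgrounds, so they were read only within a list. No source used here gives the read depth, and depth alone changes how many weak peaks are called and how wide they are.

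Neurons signal at synapses, where vesicle proteins release transmitter, receptors and scaffolds receive it, and adhesion proteins hold the sides together. In cells outside the nervous system many such genes are kept silent, in part by REST, a repressor that binds the RE1 element and brings in histone deacetylases 1 and 2 through the corepressors CoREST and SIN3. H3K9ac marks active promoters. Many of the adhesion and receptor genes are among the longest in the genome, so a gene can meet a peak by its length alone. Length classes were therefore set beside the main counts. Monocyte and macrophage markers (Csf1r, Itgam, Spi1 and others) had a gene end peak at 15 of 15 genes in both lists. The shares of all genes with one, weighted to their lengths, were 63.3% with romidepsin and 48.3% in CM. Neuron markers had one at 4 of 7 with romidepsin and 0 of 7 in CM, against 66.9% and 50.9% of all genes weighted to their lengths. Astrocyte and oligodendrocyte markers had one at 5 of 9 with romidepsin and 1 of 9 in CM, against 61.4% and 46.4%. The romidepsin counts of the neuron and the glial marker lists thus lay near the share of all genes of those lengths. All 7 neuron markers are among the genes described here, as are Gfap, Olig1, Olig2 and Mbp of the glial markers. These 2 lists are therefore no separate check on the members. In a bulk library, a peak in few of the cells and a weak peak in all of them cannot be told apart.

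Of the 37 genes, 12 carried an H3K9ac peak at an end, and 10 of these had it in the romidepsin list alone. A gene end peak, meaning a peak within 1 kb of either annotated end, was found at 12 of the 37 genes with romidepsin (32.4%, exact Clopper-Pearson 95% interval 18.01 to 49.79) and at 2 in CM (5.41%, interval 0.661 to 18.2). The intervals cover counting error only. Over all protein-coding genes the shares were 63.8% with romidepsin and 48.8% in CM. The 12 genes were Syn1, Syn2, Rbfox3, Elavl3, Grin1, Slc17a7, Slc32a1, Dlgap1, Dlg2, Tubb3, Mbp and Olig1, and Dlg2 and Mbp also had a CM peak. Thus 10 of 37 genes (27.0%) had a gene end peak with romidepsin and none in CM, against 15% of all genes and 14.6% when weighted to the members' lengths. This share depends on the CM list: 2 members had a gene end peak in CM, against 48.8% of all genes. More of the members could therefore be counted, and the share alone does not show a greater gain at these genes. Anywhere in the span, 21 genes had a peak with romidepsin (56.8%, interval 39.5 to 72.9) and 5 in CM (13.5%, interval 4.54 to 28.8). Of all genes, 68.3% and 53.6% had one, or 66.5% and 47.8% when weighted to the members' lengths. For the span, the romidepsin interval held its weighted share, and the CM interval lay below its own. At gene ends both intervals lay below the weighted shares of 53.8% and 39.2%. The intervals treat genes chosen by name as independent draws, so these readings are description and no test. With romidepsin alone, 16 genes (43.2%) had one, against 14.8% of all genes, or 18.7% when weighted. That share too depends in part on how few members had a CM peak. Of genes with no CM peak in the span, 16 of 32 members had a romidepsin peak, against 3230 of 10160 genes. Those 10160 genes were not weighted to the members' lengths, and the difference was not tested. The remaining 16 genes had no peak in either list. The romidepsin count rested on weak peaks: with equal numbers of strongest peaks in the lists, 3 genes (Mbp, Slc17a7 and Dlg2) had a gene end peak with romidepsin and 2 (Mbp and Dlg2) in CM, and 4 and 5 genes had one anywhere in the span. Of all genes, 51.0% with romidepsin and 48.8% in CM then had a gene end peak, and 54.5% and 53.6% one in the span.

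**Figure D1:**
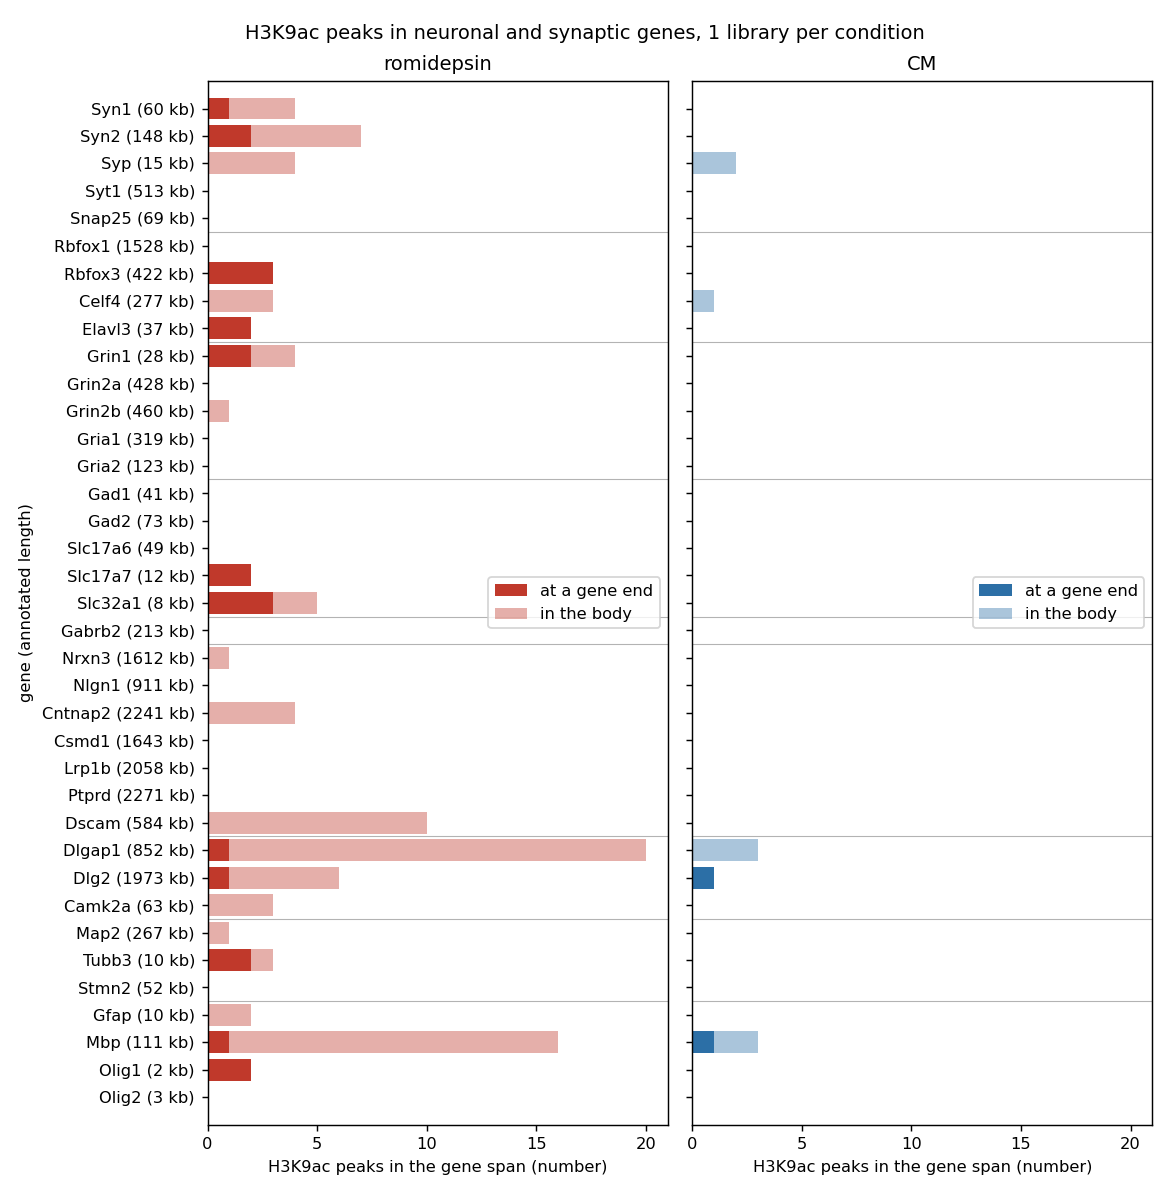
Number of H3K9ac peaks in the span of each of the 37 genes (horizontal axis) in the romidepsin list (left) and the CM list (right), 1 library each, with dark bars for peaks at a gene end, pale bars for peaks in the body and grey lines between roles. Dlgap1 with 20 and Mbp with 16 romidepsin peaks stand above the rest, and only 5 genes have a bar in CM.

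Most of the shortfall at gene ends remained when gene length was allowed for. The 37 genes had a median length of 147.7 kb (2.17 to 2271 kb), against 17.2 kb over all genes, and 7 of them exceeded 1000 kb. Weighted to the members' length classes, the share of all genes with a gene end peak was 53.8% with romidepsin and 39.2% in CM, which would be 19.9 and 14.5 of 37 genes. The shortest members were close to other short genes with romidepsin, with a gene end peak at 4 of 7 members under 20 kb and 57.6% of all genes of that class, but in CM the values were 0 of 7 and 42.9%. From 20 to 50 kb, 2 of 4 members had one with romidepsin and 0 of 4 in CM, against 74% and 59.6%. Between 50 and 100 kb, 1 of 5 members had a gene end peak with romidepsin and 0 of 5 in CM, against 75.1% and 58.6% of all genes of that length. From 100 to 300 kb the members had 2 of 6 with romidepsin and 1 of 6 in CM, against 66.7% and 50.4%, and from 300 to 1000 kb 2 of 8 and 0 of 8, against 45% and 27.5%. Above 1000 kb, 1 of 7 members had one in each list, against 22% with romidepsin and 13.6% in CM of the 59 genes of that class.

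**Figure D2:**
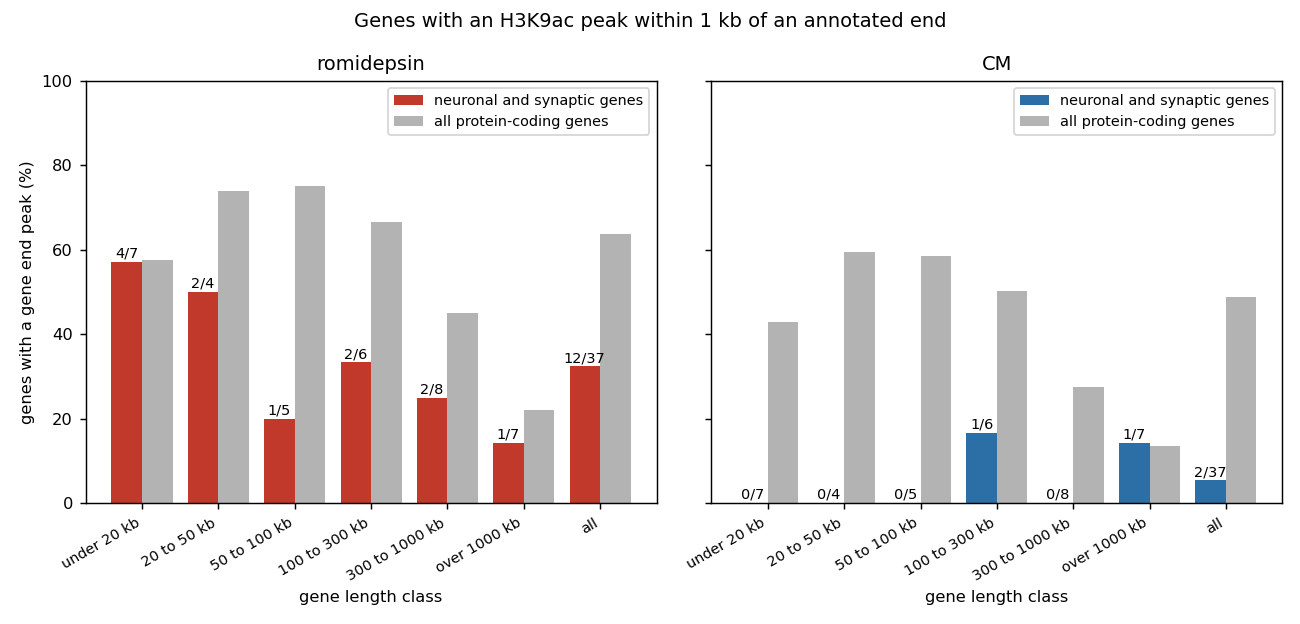
Percent of genes with an H3K9ac peak within 1 kb of an annotated end (vertical axis) by gene length class, for the neuronal and synaptic genes (coloured bars, with counts) beside all protein-coding genes (grey bars), with romidepsin on the left and CM on the right. The coloured bar is the lower one in every class but over 1000 kb in CM, and at under 20 kb with romidepsin the bars are nearly level.

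The density of peaks was also low. The 37 spans summed to 19.6 Mb and held 103 romidepsin peaks and 10 CM peaks. That was 0.527 peaks per 100 kb with romidepsin (exact Poisson 95% interval 0.430 to 0.639, counting error only) and 0.0511 in CM (interval 0.0245 to 0.0940). Over all genes the densities were 7.003 and 1.498 peaks per 100 kb, and 1.32 and 0.167 when weighted to the members' lengths. Romidepsin peaks covered 0.879% of the summed spans, and CM peaks 0.0429%. Mbp alone held much of this cover: without it 0.482% of the spans was covered with romidepsin. Dlgap1, Mbp and Dscam together held 46 of the 103 romidepsin peaks (44.7%).

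**Figure D3:**
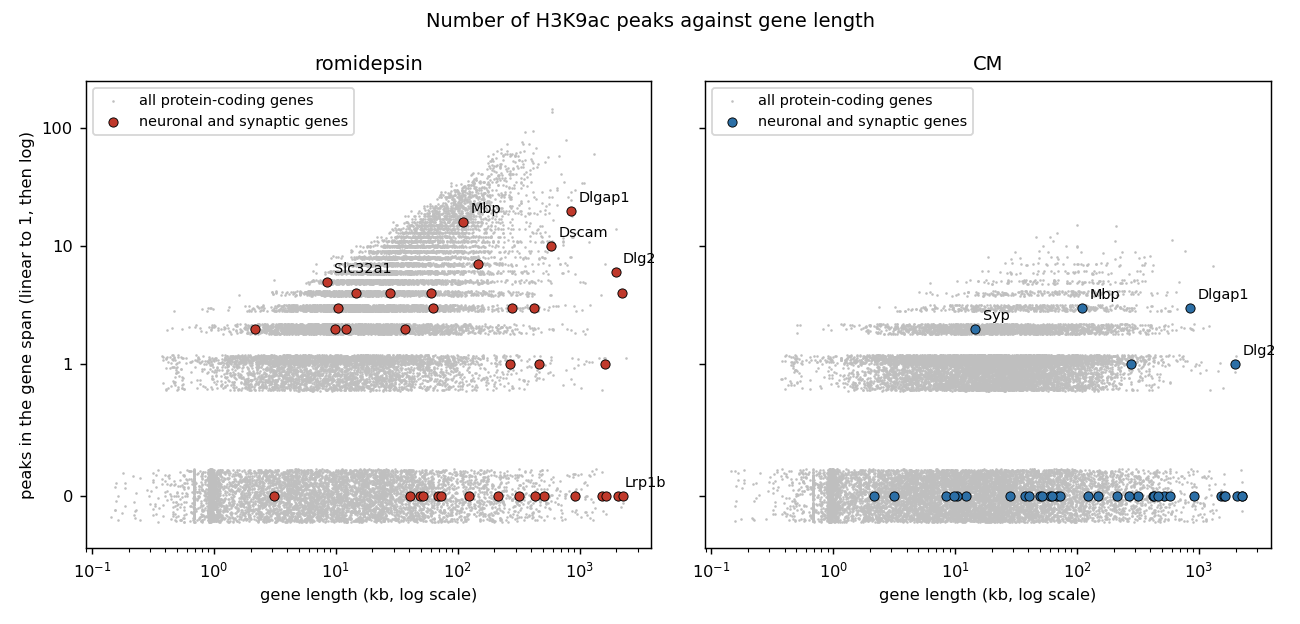
Peaks per gene span (vertical axis, linear up to 1 and logarithmic above) against gene length in kb (logarithmic axis) for all protein-coding genes (grey, spread slightly around each whole number) and the 37 neuronal and synaptic genes (coloured), with romidepsin on the left and CM on the right. Among all genes the median number of romidepsin peaks is 5 at 100 to 300 kb and 0 over 1000 kb, and 16 neuronal and synaptic genes lie at 0.

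Peaks were also counted at annotated starts. The RefSeq promoter table gave 38 starts for 25 of the 37 genes. A peak lay within 1 kb of 6 of these starts with romidepsin and of 0 in CM, against 63.4% and 50.5% of the 21263 starts of all protein-coding genes. Of the 38 starts, 12 lay 71.8 to 2184 kb inside their genes and had no peak in either list. Among starts up to 10 kb into the gene, 6 of 26 member starts had a peak with romidepsin and 0 of 26 in CM, against 64.5% and 52.3% of 19499 starts of all genes. Promoters rich in CpG are those that most often carry H3K9ac. Of starts with at least 50% G and C and a CpG ratio of at least 0.6 (observed over expected from base content), 90.9% of all 9600 had a romidepsin peak and 82.2% a CM peak. Among members, 4 of 13 such starts had a romidepsin peak (Syn1, Syn2, Elavl3 and Tubb3) and 0 of 13 a CM peak. The 9 CpG-rich starts without any peak were those of Syp, Grin1, Gria2, Gad1, Nlgn1, Dscam, Dlgap1, Map2 and Olig2. Among the remaining 25 starts, 2 had a romidepsin peak (Slc17a7 and Slc32a1), against 40.8% of all such starts, and 0 a CM peak, against 24.4%.

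**Figure D4:**
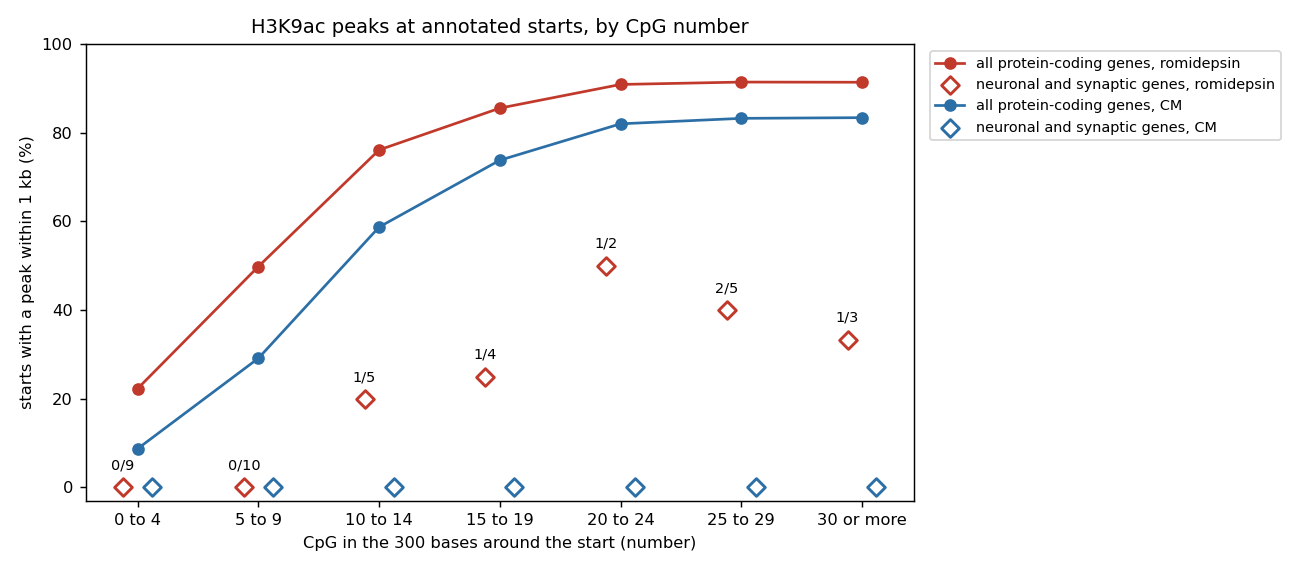
Percent of annotated starts with an H3K9ac peak within 1 kb (vertical axis) by the number of CpG in the 300 bases around the start, for all protein-coding genes (filled circles and lines) and for neuronal and synaptic genes (open diamonds, with romidepsin counts). All CM diamonds lie at 0, and every romidepsin diamond lies below the line of all genes.

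The promoters below (RefSeq, GRCm38.p6, 250 bases before to 50 after the start, each 5′ to 3′ along the gene) are shown because all are rich in CpG, written in capitals, and differ in their peaks. Elavl3 and Tubb3 had a romidepsin peak at the start, while Map2 and Grin1 had no start peak in either list.
Elavl3 (chr9:22051974-22052273, minus strand): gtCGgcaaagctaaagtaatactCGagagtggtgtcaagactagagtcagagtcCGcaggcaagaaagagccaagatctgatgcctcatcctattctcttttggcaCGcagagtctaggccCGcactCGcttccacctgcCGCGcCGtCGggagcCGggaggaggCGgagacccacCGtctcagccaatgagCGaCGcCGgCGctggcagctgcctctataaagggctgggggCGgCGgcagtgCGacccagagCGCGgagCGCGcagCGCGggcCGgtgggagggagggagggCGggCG
Tubb3 (chr8:123411303-123411602, plus strand): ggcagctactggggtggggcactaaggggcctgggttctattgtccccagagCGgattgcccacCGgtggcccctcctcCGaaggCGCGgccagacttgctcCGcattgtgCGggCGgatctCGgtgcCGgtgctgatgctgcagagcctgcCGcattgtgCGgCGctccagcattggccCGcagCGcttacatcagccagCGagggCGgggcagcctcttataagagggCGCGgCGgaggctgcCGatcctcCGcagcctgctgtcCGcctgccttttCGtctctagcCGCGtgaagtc
Map2 (chr1:66175079-66175378, plus strand): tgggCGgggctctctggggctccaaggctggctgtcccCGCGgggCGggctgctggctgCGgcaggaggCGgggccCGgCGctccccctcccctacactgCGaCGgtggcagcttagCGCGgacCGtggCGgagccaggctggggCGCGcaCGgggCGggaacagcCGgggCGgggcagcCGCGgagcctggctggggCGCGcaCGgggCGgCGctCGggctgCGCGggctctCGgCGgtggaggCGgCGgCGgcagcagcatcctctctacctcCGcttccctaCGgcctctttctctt
Grin1 (chr2:25319138-25319437, minus strand): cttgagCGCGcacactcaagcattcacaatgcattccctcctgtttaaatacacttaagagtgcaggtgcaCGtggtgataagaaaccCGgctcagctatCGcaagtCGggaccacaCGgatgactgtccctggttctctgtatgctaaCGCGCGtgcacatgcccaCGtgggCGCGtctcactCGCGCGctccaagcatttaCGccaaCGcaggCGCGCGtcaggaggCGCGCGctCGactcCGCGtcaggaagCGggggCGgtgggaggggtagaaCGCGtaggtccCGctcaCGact
These 4 promoters held 29, 26, 37 and 33 CpG in 300 bases. Map2 and Grin1 had the most CpG of the CpG-rich member starts without a peak, and the others had 14 to 26. The CpG-rich member starts with a romidepsin peak had 21 to 33, so the pairs shown do not stand for the rest. Over all member starts the median number of CpG was 23.5 at the 6 starts with a romidepsin peak and 8 at the 32 without.

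The left side of the RE1 element, TTCAGCACC, was searched on both strands of the 38 member promoters. It was in 2 of them, at Syn1 and at an inner start of Nlgn1, and in 88 of the 21263 promoters of all protein-coding genes (0.414%). The Syn1 promoter is shown with these letters in capitals, because Syn1 was the only member with both the match and a peak at that start.
Syn1 (chrX:20920869-20921168, minus strand): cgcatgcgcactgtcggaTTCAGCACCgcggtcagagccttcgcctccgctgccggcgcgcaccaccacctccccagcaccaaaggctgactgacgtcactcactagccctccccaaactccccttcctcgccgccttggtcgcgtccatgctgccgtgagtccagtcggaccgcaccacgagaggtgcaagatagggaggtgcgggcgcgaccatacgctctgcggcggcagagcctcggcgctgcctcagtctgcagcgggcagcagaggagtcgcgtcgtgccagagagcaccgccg
Binding of REST was not measured, and a match in letters is not a bound site.

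Among the synaptic vesicle genes, the synapsin genes Syn1 and Syn2 had a romidepsin peak at the start and no CM peak, and Syp had peaks in its body in both lists. Syn1, which encodes a protein that tethers vesicles, had 4 romidepsin peaks and 0 CM peaks in 60.4 kb. The peak at its start (chromosome X, 20920058 to 20921879, 1822 bp) had a fold of 3.16 and a −log10 q of 3.74, and the other 3 were shorter and weaker, with folds of 2.17 to 2.63. The nearest CM peak lay 9.73 kb from the gene. Timp1, a protease inhibitor gene that lies within Syn1, had 0 peaks in both lists. Syn2, a further synapsin gene, had 7 romidepsin peaks and 0 CM peaks. Its start peak was 365 bp long with a fold of 2.71, the far end had 1 of 1110 bp with a fold of 2.89, and 4 others (folds 2.27 to 2.55) lay in the final 10% of the gene.

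Syp, which encodes the vesicle membrane protein synaptophysin, had 4 romidepsin and 2 CM peaks, none of them at a gene end. The CM peaks, 432 bp (fold 4.32) and 484 bp (fold 3.37), lay 10.1 and 10.9 kb from the start of the 14.7 kb gene. Each was overlapped by a romidepsin peak, of 650 bp (fold 2.30) and 769 bp (fold 2.57), and neither lay wholly inside it. Syt1, the calcium sensor of release, and Snap25, a SNARE protein of vesicle fusion, had no peak. Their nearest romidepsin peaks were 50.9 and 33.5 kb away, and their nearest CM peaks 306.1 and 34.2 kb.

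Of the neuronal RNA-binding protein genes, Elavl3 and Rbfox3 had gene end peaks with romidepsin only. Elavl3, a member of the neuronal Hu family, had both of its romidepsin peaks at the start, 461 bp (fold 2.93) and 552 bp (fold 2.84). Rbfox3, which encodes the neuronal nuclear antigen NeuN, had 3 romidepsin peaks, all at its far end, with folds of 2.34 to 3.26. The outer 2 of them also met an end of Engase, a glycan-processing enzyme gene. The strongest of them did not. The only start of Rbfox3 in the promoter table, 150.6 kb into the gene, had none. Celf4 had 3 romidepsin peaks and 1 CM peak in its body. The CM peak (chromosome 18, 25486771 to 25487518, fold 4.03) lay wholly inside a romidepsin peak of 2267 bp (fold 3.25). Rbfox1, a splicing factor gene of 1528 kb, had no peak in either list, although a romidepsin peak lay 6.29 kb outside it.

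Of the 5 glutamate receptor genes, Grin1 and Grin2b had romidepsin peaks, and none had a CM peak. A gene end peak was present at 1 of 5 with romidepsin and 0 of 5 in CM. Weighted to their lengths, 55.1% and 38.5% of all genes had one. Grin1, which encodes the obligatory NMDA receptor subunit, had 4 romidepsin peaks and 0 CM peaks. The 2 at its far end (folds 2.43 and 2.95) also met ends of Lrrc26 and, for the weaker one, of Tmem210, and the antisense transcript Grin1os. Those in the body were 463 bp (fold 3.30) and 723 bp (fold 3.26), so the strongest peaks of Grin1 were not at an end. Grin2b, a further NMDA receptor subunit gene, had 1 romidepsin peak of 327 bp (fold 2.33), 186.1 kb from the nearest end. Grin2a and the AMPA receptor genes Gria1 and Gria2 had no peak in either list, and their nearest romidepsin peaks were 289.7, 180.4 and 231.6 kb away. Gabrb2, a GABA receptor subunit gene, had none within 500 kb.

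Genes of transmitter synthesis and loading were split. Slc32a1, which encodes the vesicular GABA transporter, had 5 romidepsin peaks and 0 CM peaks in 8.49 kb. These covered 67.1% of its span. As much cover was found in 22.8% of all genes under 20 kb, and as many peaks in 6.63%. The longest peak (chromosome 2, 158612770 to 158616635, 3866 bp, fold 3.11) lay over the far end. The 2 at the annotated start were 1266 bp (fold 3.08) and 555 bp (fold 2.88). Those in the body, 397 bp (fold 2.59) and 957 bp (fold 2.35), lay by the only start of the gene in the promoter table. The 4 peaks other than the longest also met the long noncoding RNA gene Gm14204. Slc17a7, which encodes the vesicular glutamate transporter VGLUT1, had a romidepsin peak of 4652 bp (fold 3.24) at its start, shared with Pih1d1, and 1 of 2089 bp (fold 3.44) at its far end, shared with Gfy. So the gene end peaks of Slc17a7 cannot be assigned to it alone. Gad1 and Gad2, the GABA-synthesizing enzyme genes, and Slc17a6, the VGLUT2 gene, had no peak in either list, with the nearest romidepsin peak 18.4, 27.6 and 189.2 kb away.

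The adhesion and large membrane protein genes had gene end peaks at 0 of 7 in both lists and no CM peak at all. Weighted to their lengths, 28.6% of all genes had a gene end peak with romidepsin and 17.5% in CM, so a count of 0 among 7 genes lies near that of other genes this long. Nlgn1, Csmd1, Lrp1b and Ptprd, with lengths of 911, 1643, 2058 and 2271 kb, held none. With Gabrb2 they were the 5 members with no romidepsin peak within 500 kb of the gene, and they summed to 7.096 Mb. Lrp1b, a large lipoprotein receptor gene, lay farthest, 891 kb from a romidepsin peak and 902 kb from a CM peak. Genes of this size often held no peak: 54.2% of all 59 genes over 1000 kb had no romidepsin peak and 78.0% no CM peak. Cntnap2, a contactin-associated adhesion gene, had 4 romidepsin peaks in pairs far inside its 2241 kb, with folds of 2.35 to 2.69. Nrxn3, a presynaptic neurexin gene, had 1 of 454 bp (fold 2.38) in 1612 kb.

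Dscam, an adhesion gene of neuronal self-avoidance, was the exception in that group, with 10 romidepsin peaks and 0 CM peaks. As many were held by 27.3% of all genes of 300 to 1000 kb. A cluster of 4 lay 59.98 to 68.72 kb from the start (chromosome 16, 97102395 to 97111136), with folds of 2.58 to 3.25. The one closest to the start lay 4.87 kb inside the gene, and the start itself had none. The nearest CM peak was 289 kb away.

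The postsynaptic scaffold and kinase genes held 29 romidepsin and 4 CM peaks, or 1.00 and 0.138 per 100 kb. Dlgap1, which encodes a PSD-95-associated scaffold protein, had 20 romidepsin and 3 CM peaks, and 15.9% and 9.04% of all genes of its length class held as many. Of the romidepsin peaks, 15 lay in a stretch of 52.2 kb (chromosome 17, 70706681 to 70758900), 738 to 790 kb from the start, and folds in the gene reached 3.88. In CM, 2 peaks lay in the same stretch, 655 bp (fold 4.63) and 827 bp (fold 4.04), and the third, of 430 bp (fold 4.37), lay 3.04 kb from the far end. Each lay wholly inside a romidepsin peak. The peaks at the low side of this stretch met the noncoding gene Gm36746, and no other protein-coding gene was touched. Neither of the 2 starts of Dlgap1 in the table had a peak, and its only gene end peak was a weak one beyond the far end (352 bp, fold 2.35).

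Dlg2, which encodes the scaffold PSD-93, had 6 romidepsin peaks and 1 CM peak in 1973 kb. Its strongest romidepsin peak (chromosome 7, 90474482 to 90477620, 3139 bp, fold 4.20, −log10 q 7.30) and its CM peak (90475281 to 90477029, 1749 bp, fold 5.35) lay at the annotated start. Both also met the end of Tmem126b, a mitochondrial complex I assembly gene, so they cannot be assigned to Dlg2. The 3 starts of Dlg2 in the promoter table, 615 to 1759 kb further in, had none. Of the other romidepsin peaks, 4 lay within 30 kb of the far end. Camk2a, the synaptic calcium-dependent kinase gene, had 3 romidepsin peaks in its body, with folds of 2.43 to 2.67, and 0 CM peaks.

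**Figure D5:**
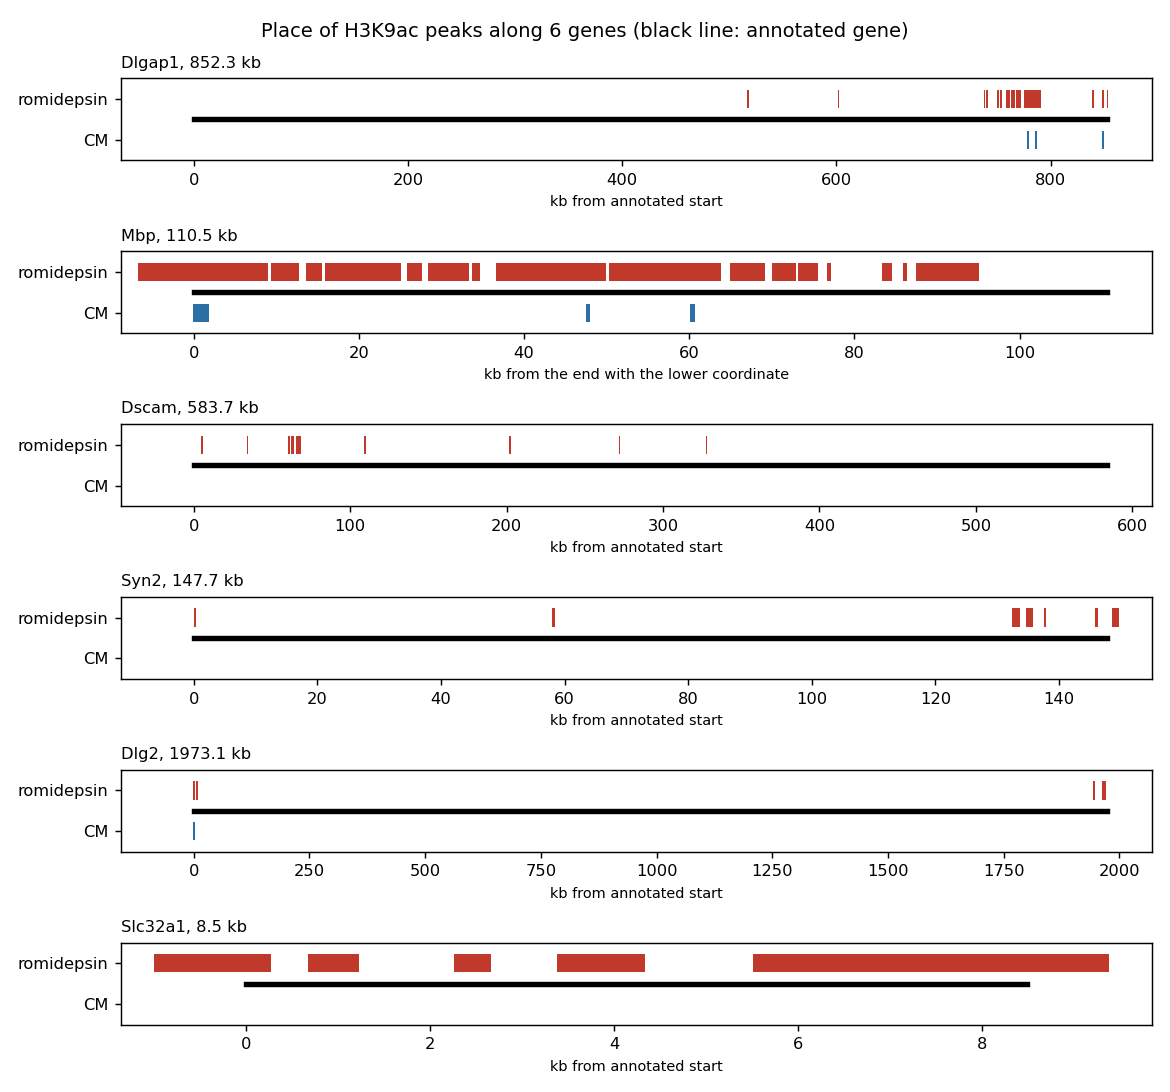
Place of H3K9ac peaks along 6 genes, in kb from the annotated start (for Mbp, whose strand is not in the promoter table, from the end with the lower coordinate), with romidepsin peaks in red above the black gene line and CM peaks in blue below it. Very short peaks are drawn slightly wider to be visible. Mbp is covered along most of its length with romidepsin, whereas the peaks of Dlgap1 crowd 738 to 790 kb from its start.

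Among the cytoskeletal genes, Tubb3, which encodes the neuronal tubulin beta III, had 3 romidepsin peaks and 0 CM peaks. The peak at its start (chromosome 8, 123410332 to 123412502, 2171 bp, fold 2.77) also met an end of Mc1r, a melanocortin receptor gene, and that at its far end (541 bp, fold 2.43) met no other gene. Map2, a dendritic microtubule-associated protein gene, had 1 romidepsin peak of 470 bp (fold 2.51) in its body. Stmn2, a microtubule regulator of growing axons, had no peak in either list, with the nearest romidepsin peak 32.0 kb away.

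Of the glial genes, Mbp, the longest, had the most peaks. Mbp encodes myelin basic protein in oligodendrocytes, and the locus also gives rise to golli proteins, which are made in immune cells as well. It had 16 romidepsin and 3 CM peaks. The romidepsin peaks covered 69.5% of its 110.5 kb with margins, and 1.66% of all genes of 100 to 300 kb were covered as much. The CM peak at its lower-coordinate end (chromosome 18, 82474986 to 82476947, 1962 bp) had a fold of 6.81 and a −log10 q of 7.34, the highest of the members in CM. The romidepsin peak there (82468362 to 82484060, 15.7 kb, fold 4.08) was the longest of the members, and it held the CM peak wholly. The other CM peaks, 497 bp (fold 3.20) and 607 bp (fold 3.77), lay in the body, the shorter one at the pseudogene Rpl21-ps8. Mbp was the only member with a gene end peak in CM that met no other coding gene's end.

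The other glial genes carried short romidepsin peaks or none. Olig1, an oligodendrocyte transcription factor gene of 2.17 kb, had 2, of 670 bp (fold 2.92) and 597 bp (fold 2.35), and 0 in CM. Its neighbour Olig2, which specifies the same lineage, had 0 in both lists, with the nearest romidepsin peak 41.4 kb away. Gfap, the astrocyte filament gene, had 2 romidepsin peaks in its body (folds 2.92 and 2.29) and 0 CM peaks. With windows of 2.5 kb around gene ends, Gfap was the only member added to the 12.

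The members' romidepsin peaks at gene ends were short and weak beside those of other gene ends. Of all 103 romidepsin peaks in the members, 81 lay in the body, and 56 were under 1 kb long. The members' median length was 812 bp, against 957 bp for all romidepsin peaks, most of which were thus also under 1 kb. The members' median fold was 2.66, close to the 2.64 of all romidepsin peaks. At gene ends, the 22 member peaks had a median fold of 2.91 and a median length of 989 bp, against 3.52 and 3031 bp for all 17144 romidepsin peaks at gene ends. By the strongest gene end peak of each gene, the 12 members had a median fold of 3.03 and all 13968 genes with one had 3.86. Among genes with a romidepsin gene end peak and none in CM, the 10 members had a median of 2.94 and all 3288 genes 3.02 (quartiles 2.66 to 3.48), so the members were like other genes of that kind. A fold of at least 3 was reached by 29 of the 103 romidepsin peaks, in 10 members, and by 27710 of all 103336, a similar share. All 10 CM peaks in the spans overlapped a romidepsin peak, and 8 lay wholly inside one.

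Romidepsin peaks in long members mostly lay away from the ends, as they did over all genes of that length. In the 21 members over 100 kb, 8 of 72 romidepsin peaks (11.1%) were at a gene end and 55 (76.4%) lay in the body more than 10 kb from one. Over all 2429 genes of that length these shares were 8.08% and 82.0%. In CM, 2 of 8 peaks in these members were at an end, against 44.9% over all genes of that length. By position, 23 of 52 romidepsin peaks in long members of known strand (44.2%) lay in the final 10% of the gene, against 9.35% over all such genes, and 7 (13.5%) in the first 10%, against 17.8%. Dlgap1, Dlg2 and Syn2 supplied these last peaks together with Rbfox3 and Cntnap2, so this share describes 5 genes rather than the list.

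Further synaptic genes, 60 in number, were counted the same way. A gene end peak was present at 29 of 60 (48.3%) with romidepsin and 16 of 60 (26.7%) in CM, against 62.4% and 46.5% of all genes weighted to their lengths. Presynaptic genes had one at 13 of 20 with romidepsin and 6 of 20 in CM, against weighted shares of 63.2% and 47.4%. Vamp2, which encodes a vesicle SNARE, had a fold of 3.92 with romidepsin and 6.98 in CM, and Sv2a, a vesicle glycoprotein gene, had a romidepsin peak only (fold 3.43). Receptor and channel genes had one at 6 of 20 and 3 of 20, against 60.6% and 44.2%. Cacna1a, a calcium channel gene, had one in both lists (fold 3.62 with romidepsin and 4.73 in CM). Adhesion and postsynaptic genes had one at 10 of 20 and 7 of 20, against 63.3% and 47.9%. The scaffold gene Homer1 had one in both lists (fold 4.17 with romidepsin and 6.27 in CM). Neighbours that share these peaks were not examined.

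Genes of the REST repressor and its partners had a gene end peak at 15 of 15 in both lists, against 70.0% and 54.8% of all genes weighted to their lengths. Rest itself had a fold of 4.29 with romidepsin and 6.47 in CM. The corepressor gene Rcor1 had 3.85 and 7.17, and the deacetylase genes Hdac1 and Hdac2 had 3.85 and 4.74 with romidepsin and 6.42 and 6.21 in CM.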

How the data were processed

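Sequencing of the H3K9ac ChIP libraries was single-end, with reads of 75 bases, per the labels' protocols. Bowtie2 (2.4.4), MACS2 (2.2.7.1) and deepTools (3.5.1) were used with mm10, per the submitters' processing notes. For settings, read filters, depth and whether the input served as control, the sources used here state nothing. The authors' deposited broad peak lists give each peak a score, a fold enrichment (ratio), and −log10 p- and q-values. Peaks were called per library. The 2 input libraries of the series were not analysed here.

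Peaks were placed on RefSeq genes of GRCm38.p6 with Python (3.11.15) and pandas (2.3.3), with an overlap of at least 1 bp. Strand and starts came from a RefSeq promoter table, which held 17492 of the 21887 genes and 25 of the 37 members. In the other 12 members the start was not told from the far end. Other genes' shares were taken in 6 length classes, with bounds at 20, 50, 100, 300 and 1000 kb. CpG groups used promoter sequence. Counting functions were tested on simulated data. The naming rule took members with a gene end peak, the 5 longest, the 5 with most peaks, the 3 with the highest cover, and coding neighbours that shared a gene end peak. The other members, promoters and further genes named were picked after their values were seen. Members and lists were chosen with earlier results of these data known. Alternatives covered thresholds on −log10 q and fold, windows, merging, equal numbers of strongest peaks, and overlap. With 1 library per group there was no test.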

Additional observations from a re-analysis of the deposited data

How the results depend on the processing

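Of 90 values recomputed under 9 alternatives, 58 stayed close to the reported value (counts and cover within 1.5 times, densities within their counting interval) and 32 did not. Windows of 500 bp or 2.5 kb and a 50% overlap moved none. At a −log10 q of at least 2, members held 65 romidepsin peaks, or 0.332 per 100 kb. At a −log10 q of at least 5, romidepsin gave 2 members with a gene end peak, 3 with a peak in the span, 7 peaks, 0.0358 per 100 kb and 0.211% cover, and CM gave 1, 1, 1, 0.00511 and 0.0100%, while 46.7% and 29.9% of all genes had a gene end peak. A peak in the span was held by 49.8% and 32.4% of all genes at that threshold. At a −log10 q of at least 10 all 10 values were 0, and 0.612% of all genes with romidepsin and 0.251% in CM had a gene end peak. At a fold of at least 3, romidepsin gave 6 members at gene ends, 10 in the span, 29 peaks and 0.148 per 100 kb, while CM did not move. Of all genes, 55.6% then had a gene end peak with romidepsin and 59.8% one in the span. Merging peaks closer than 1 kb gave 0.363 romidepsin peaks per 100 kb. With the 16419 strongest peaks of each list, romidepsin gave 3 members at gene ends, 4 in the span, 12 peaks, 0.0613 per 100 kb and 0.331% cover, and all genes had a gene end peak in 51.0% with romidepsin and 48.8% in CM. In the span the shares of all genes were 54.5% and 53.6%. These settings leave fewer peaks by construction. No paired analysis was possible because each group had 1 library. Read depth, which sets how many weak peaks are called, is unknown.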
